A study of Mus musculus with 2 samples.

Results

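The data described here concern 3 pairs of signal and receptor genes through which lymphocytes act on dendritic cells: the chemokine gene Xcl1 and its receptor gene Xcr1, the growth factor gene Flt3l and its receptor gene Flt3, and the cytokine gene Csf2 with Csf2rb, the gene for the signalling subunit of its receptor. The 6 genes were taken by symbol from the 32285 genes listed in the matrices, and all 6 were present in each. They were read in 11152 DMSO cells and 10846 STK cells that had 500 or more unique molecular identifiers (UMIs, each standing for an RNA molecule that was captured and counted), 250 or more genes, and mitochondrial genes in no more than 10% of their UMIs. Both groups were MYC-ON mice with hepatocellular carcinoma. The animals were gavaged, 1 group being labelled DMSO-treated and the other STK-treated, and live CD45+ cells, the blood-derived immune cells, were sorted from the dissociated tumours. Each group is 1 library made with the 10x Genomics 5′ chemistry, under a shared batch label. The labels do not say further what STK is, how many animals a library holds, or their age and sex. The series title concerns the cholesterol esterification enzyme SOAT1 and the functions of regulatory T cells.

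XCL1 is a chemokine secreted by natural killer (NK) cells, innate lymphoid cells and activated CD8 T cells. Its receptor XCR1 is carried mainly by type 1 conventional dendritic cells (cDC1), which take up dead cells and present their antigens to CD8 T cells. FLT3 ligand, made by lymphocytes among other cells, drives the formation and survival of dendritic cells through the receptor tyrosine kinase FLT3. GM-CSF, the product of Csf2, binds an alpha chain (CSF2RA) that pairs with the common beta chain CSF2RB and signals through JAK2 and STAT5. Mice also carry Csf2rb2, a close relative of Csf2rb whose product serves interleukin 3 alone.

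The promoters of the genes whose RNA marked a cell type most closely are printed here, so that the pattern can be read beside the sequence. Each run is the 250 bases before the RefSeq start in GRCm38.p6, written 5′ to 3′ on the gene's own strand, with capitals at matches to 6 short motifs on either strand: RUNX (ACCACA), T-box (CACACC), NFAT (GGAAA), AP-1 (TGANTCA), IRF (GAAANNGAA) and ETS (GGAAGT). All 3 genes lie on the minus strand, and the positions are chr1:164935523-164935772 for Xcl1, chr9:123862030-123862279 for Xcr1 and chr5:147400490-147400739 for Flt3.
Xcl1: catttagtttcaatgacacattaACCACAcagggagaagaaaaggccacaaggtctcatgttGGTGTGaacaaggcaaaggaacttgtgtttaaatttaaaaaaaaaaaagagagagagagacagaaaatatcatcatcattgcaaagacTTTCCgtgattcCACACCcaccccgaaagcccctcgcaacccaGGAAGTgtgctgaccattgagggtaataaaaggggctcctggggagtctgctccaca
Xcr1: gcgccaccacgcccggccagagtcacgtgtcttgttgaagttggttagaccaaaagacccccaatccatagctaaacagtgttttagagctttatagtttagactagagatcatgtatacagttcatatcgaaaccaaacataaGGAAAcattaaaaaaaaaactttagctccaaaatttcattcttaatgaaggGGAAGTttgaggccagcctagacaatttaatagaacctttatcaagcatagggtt
Flt3: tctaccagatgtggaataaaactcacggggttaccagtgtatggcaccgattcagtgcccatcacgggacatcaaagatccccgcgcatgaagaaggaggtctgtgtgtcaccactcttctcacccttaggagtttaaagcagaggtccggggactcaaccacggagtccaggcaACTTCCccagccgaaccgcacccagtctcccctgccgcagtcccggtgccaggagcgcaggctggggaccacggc
The Xcl1 window held 1 RUNX match, 2 T-box matches, 1 NFAT match and 1 ETS match. The Xcr1 window held 1 NFAT and 1 ETS match, and the Flt3 window held 1 ETS match, on the opposite strand. In all 32817 windows of this length, a T-box match was found in 16.3%, a RUNX match in 14.0%, an ETS match in 19.7% and an NFAT match in 55.6%, against 6.75% for AP-1 and 7.12% for IRF, neither of which was found in these 3 windows. A match of letters is a description and not a binding site.

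In the GRCm38 annotation (GENCODE vM21) Xcl1 lies at chr1:164931644-164935527, Xcr1 at chr9:123852315-123862029, Flt3l at chr7:45129788-45136432, Flt3 at chr5:147330741-147400489 and Csf2 at chr11:54247271-54249667, all on the minus strand, whereas Csf2rb lies at chr15:78325752-78353847 on the plus strand. Xcl1, Flt3 and Csf2 each have a gene model on the opposite strand, and Flt3l overlaps a model on its own strand. Csf2rb and Csf2rb2 are near copies over their first coding bases, and the reads of this chemistry fall at the 5′ ends. Their first 120 coding bases are given with the 4 bases that differ in capitals.
Csf2rb: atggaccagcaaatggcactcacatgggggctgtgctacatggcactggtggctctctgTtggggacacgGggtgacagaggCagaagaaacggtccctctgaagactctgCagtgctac
Csf2rb2: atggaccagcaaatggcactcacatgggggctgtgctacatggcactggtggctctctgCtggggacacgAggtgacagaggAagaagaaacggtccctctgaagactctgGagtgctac
The other 116 bases were identical. Over the whole Csf2rb transcript 8.43% of 90-base windows were found in the Csf2rb2 transcript too. The share was 11.4% over its first 600 bases and 12.6% over its coding part. Reads that lie wholly in such shared windows cannot be assigned to 1 of the genes, so values of both are uncertain to that extent.

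Cells were assigned to gates by marker genes, none of which is among the 6 genes, and 21 gates held at least 50 cells in each library. The gate names are those of the markers: a conventional NK gate and an ILC1-like gate (group 1 innate lymphoid cells), 4 CD8 T gates, Foxp3+ T, Foxp3- CD4 T, a gamma-delta or IL-17 T gate, other T, 4 dendritic gates (cDC1, cDC2, mature DC and plasmacytoid DC, or pDC), monocytes, macrophages and others. Genes that took no part in the gates were used to check the names. Itgae, which cDC1 carry, stood at 142 CPM (UMIs of the gene scaled to 1000000 UMIs of the gate) and 158 CPM in the DMSO and STK cDC1 gates, at 2.07 and 5.42 CPM in cDC2 and at 9.24 and 1.75 CPM in mature DC. Batf3, a cDC1 transcription factor gene, did not set this gate apart, since it stood at 222 and 178 CPM in cDC1, 263 and 261 CPM in mature DC and 86.2 and 61.1 CPM in macrophages. The granzyme gene Gzma stood at 2538 and 4037 CPM in the ILC1-like and 7207 and 9967 CPM in the conventional NK gates, and at 0 and 2.06 CPM in the cDC1 gates. Hepatocyte or tumour cells made up 980 DMSO and 679 STK cells in spite of the sort, and serve below as the cells that should lack the 6 genes. The libraries differed in sex: of the cells with UMIs of the female-specific or of Y-linked genes alone, 18.8% were female in DMSO and 74.0% in STK, whereas 5564 and 4318 cells had neither and 124 and 294 had both. Sex and treatment cannot be told apart in the pooled values, so female and male ratios are given beside many values of the 6 genes. Values without them are pooled over the sexes, among them the gene lists, the partner genes Csf2ra and Csf2rb2, and all counts of genes or gates past a fold. The libraries shared 203 barcodes, 183 among kept cells.

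With 1 library per group no test was possible and no p-value is given. CPM values carry exact Poisson 95% intervals, ratios of STK to DMSO exact binomial 95% intervals, and shares of cells exact Clopper-Pearson 95% intervals, and these hold the error of counting alone, not the spread between animals. Shares of cells were also taken after every cell was thinned to 1000 UMIs.

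Xcl1 RNA was highest in ILC1-like cells in both libraries, at a like level in the pair, and T cell gates overlapped conventional NK cells below it. In the ILC1-like gate, the liver-resident relatives of NK cells, it stood at 2371 CPM in DMSO (2410 UMIs in 164 cells) and 2361 CPM in STK (3841 UMIs in 266 cells), a ratio of 1.00 (0.946 to 1.05). It was seen in 97.6% and 94.7% of these cells, with medians of 10 and 9 UMIs per cell and highest values of 82 and 115. After thinning, 74.2% (66.8 to 80.8) and 74.7% (69.0 to 79.8) still had a UMI. None of 979 and 679 thinned hepatocyte or tumour cells did, which allows shares of up to 0.306% and 0.442%.

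In conventional NK cells, the circulating killer cells, Xcl1 stood at 1052 CPM in 579 DMSO cells and 1128 CPM in 729 STK cells, a ratio of 1.07 (1.02 to 1.12). It was detected in 73.2% and 78.9% of them, and in 48.6% and 48.1% after thinning. The ILC1-like level thus lay above the conventional NK level in each library, with intervals that did not overlap. Ratios within a sex were higher than the pooled one in both gates: 1.18 in female and 1.13 in male ILC1-like cells, and 1.82 and 1.13 in conventional NK cells. The ILC1-like gate held only 11 female DMSO cells. The female DMSO value of the conventional NK gate was 540 CPM, against 1074 CPM in male DMSO cells, 982 CPM in female STK cells and 1216 CPM in male STK cells. Over all NK and ILC1 cells Xcl1 went from 1418 to 1536 CPM (1.08, 1.05 to 1.12), with 1.83 in female and 1.17 in male cells.

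**Figure D1:**
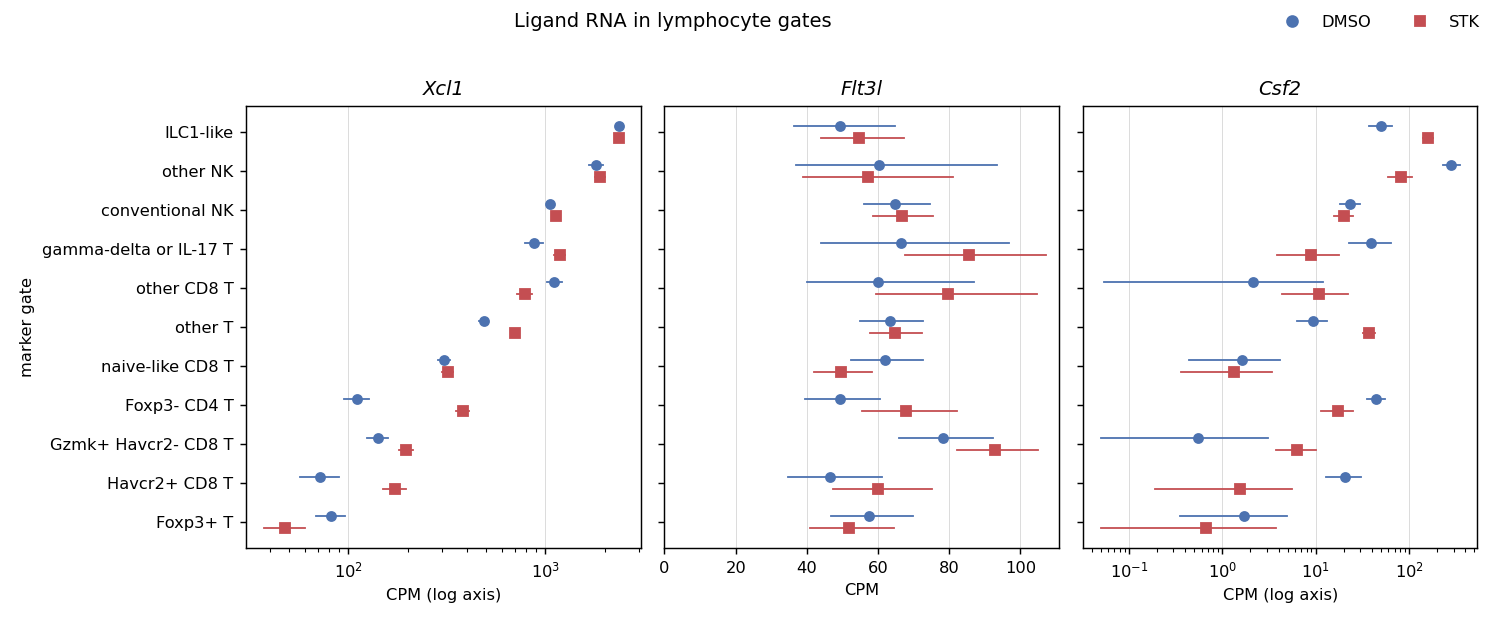
Level of the 3 ligand genes in the 11 lymphocyte gates of the DMSO and STK libraries (1 each), in CPM of the gate's UMIs, with exact Poisson 95% intervals as bars. The Xcl1 and Csf2 axes are logarithmic and leave out gates without a UMI, and the Flt3l axis starts at 0; Xcl1 and Csf2 differ widely between gates, whereas Flt3l stays between 46.5 and 92.9 CPM.

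T cells as a whole held less Xcl1 per UMI than NK and ILC1 cells. The pooled ratio between the libraries was larger in T cells, but within each sex it was smaller. Over all T cells Xcl1 stood at 296 CPM in DMSO (3878 UMIs in 2700 cells) and 444 CPM in STK (7328 UMIs in 3427 cells), a ratio of 1.5 (1.44 to 1.56). Female T cells went from 384 to 607 CPM (1.58), whereas male T cells went from 332 to 298 CPM (0.897). The pooled direction was therefore not found in male cells, and the part of the sex mix in it was not tested.

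Among the T gates, other T cells were higher in STK in both sexes. They stood at 486 and 704 CPM pooled (1.45, 1.36 to 1.54), with 2.78 in female and 1.20 in male cells. Other T cells are those that entered none of the other T gates. They can include cells with too few CD8 UMIs for a CD8 gate, or with CD8 beside Cd4 or Foxp3 UMIs. This gate also carried NK marker UMIs in 27.3% and 34.8% of its cells, at 447 and 454 CPM, and the part of such cells in the value was not tested. Foxp3- CD4 T cells had 110 CPM in DMSO (199 UMIs in 47 of 376 cells) and 380 CPM in STK (587 UMIs in 54 of 376 cells), a ratio of 3.45 (2.93 to 4.07), with 3.21 in female and 1.80 in male cells. The share of cells with a UMI was 12.5% and 14.4%, and 1 STK cell held 166 of the 587 UMIs. Without the top cell of each library the ratio was 2.87.

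In gamma-delta or IL-17 T cells Xcl1 went from 877 to 1181 CPM (1.35, 1.19 to 1.52), but female cells went from 231 to 1482 CPM with only 9 DMSO cells, and male cells from 983 to 752 CPM (0.765). Naive-like CD8 T cells stood at 306 and 319 CPM (1.04), with 4.93 in female and 0.463 in male cells and 231 of 755 DMSO UMIs in 1 cell. Gzmk+ CD8 T cells went from 141 to 196 CPM (1.39; female 2.69 with 16 DMSO cells, male 0.643). Exhausted-type CD8 T cells, gated by the inhibitory receptor gene Havcr2, went from 71.6 to 172 CPM (2.41, 1.86 to 3.15) with 26 and 35 positive cells. The Havcr2+ ratio was 0.987 when every marker minimum was raised by 1 UMI.

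Lower values in STK were read in other CD8 T cells, 1108 to 785 CPM (female 0.424 with 15 DMSO cells, male 0.30). They were also read in Foxp3+ T cells, 81.2 to 47.7 CPM (0.587, 0.436 to 0.785; female 1.79 on 3 DMSO UMIs, male 0.214). In the other CD8 gate 1 cell held 141 of the 516 DMSO UMIs and 1 cell held 69 of the 512 STK UMIs. In the Foxp3+ gate, the regulatory T cells, 71 and 47 of the 144 DMSO UMIs sat in 2 cells. Myeloid and B gates held little: 5.05 and 3.33 CPM in macrophages, where 20 of 28 DMSO UMIs came from 1 cell, and 1.33 and 10.6 CPM in B cells.

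**Figure D2:**
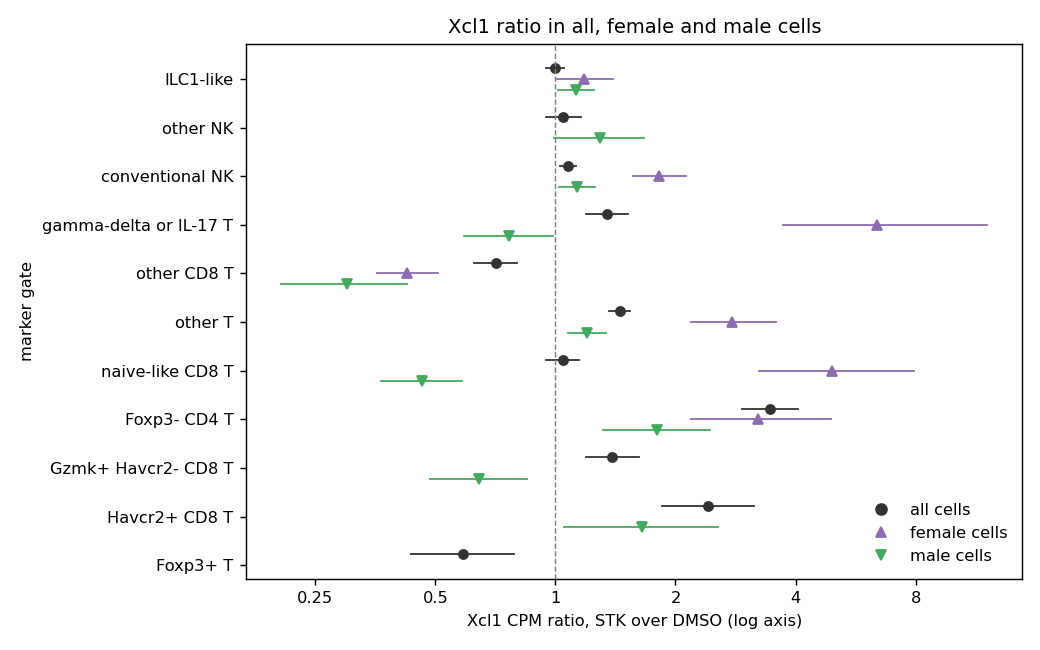
Ratio of Xcl1 CPM, STK over DMSO, on a logarithmic axis with exact 95% intervals, for all cells of each lymphocyte gate and for its female and male cells where each library held at least 10 Xcl1 UMIs. The ILC1-like, conventional NK and other T points lie above 1 in both sexes, whereas the gamma-delta or IL-17 and naive-like CD8 T points lie on opposite sides of 1.

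Other signals of the same lymphocytes were compared next. A list of 14 effector chemokine and cytokine genes was read in each gate, counting genes with at least 10 UMIs over both libraries whose CPM differed by 1.5 times or more. In conventional NK cells 1 of 11 was higher and 3 were lower, against 6.9% higher and 13.8% lower among all genes of the gate. The inflammatory chemokine genes Ccl3 and Ccl4, whose products attract monocytes and T cells, went from 699 to 333 CPM and from 2618 to 1705 CPM. Xcl1 stood at 1052 and 1128 CPM there, likewise pooled over the sexes, and was higher in STK within each sex. The median log2 ratio of the list was -0.37 against -0.08 for all genes. In ILC1-like cells 1 of 12 was higher and 5 were lower (11.2% and 11.6% of all genes), with Ccl3 at 578 and 323 CPM, the lymphotoxin gene Ltb at 541 and 325 CPM, and Ccl5 at 2608 and 4105 CPM.

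The T gates were read in the same way. In Havcr2+ CD8 T cells 0 of 11 were higher and 5 lower (10.3% and 12.3% of all genes), with Ccl3 at 415 and 70.2 CPM, Ccl4 at 1653 and 441 CPM, and the interferon gene Ifng at 197 and 56.2 CPM. In Gzmk+ CD8 T cells 1 of 12 was higher and 4 lower (8.99% and 12.0%), with Ccl3 at 120 and 36.4 CPM and Ifng at 130 and 84.4 CPM. In Foxp3- CD4 T cells 2 of 14 were higher and 3 lower (11.4% and 13%), with Ccl1 at 25.5 and 74.4 CPM and Ccl4 at 304 and 168 CPM. In gamma-delta or IL-17 T cells 0 of 10 were higher and 3 lower (16.6% and 13%), with Ccl3 at 160 and 29.3 CPM. In other T cells 0 of 13 were higher and 6 lower (8.44% and 9.48%), with Ccl1 at 19.8 and 4.17 CPM and Ccl3 at 154 and 65.2 CPM. The list was chosen with earlier results of these data known, so its direction is a description.

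Flt3l was read in all T, NK and ILC1 gates over a narrow range, and little in B cells. Its 11 T, NK and ILC1 gates lay between 46.5 CPM (Havcr2+ CD8 T, DMSO) and 92.9 CPM (Gzmk+ CD8 T, STK). Each neighbour in the order of gates overlapped the next, but gates further apart in the order did not all overlap. In DMSO the Gzmk+ CD8 interval lay above those of the ILC1-like, Foxp3- CD4 T and Havcr2+ CD8 T gates. In STK it overlapped only those of the gamma-delta or IL-17 T, other CD8 T and Foxp3- CD4 T gates. Over all T cells it stood at 61.0 CPM in DMSO (798 UMIs) and 67.3 CPM in STK (1110 UMIs), a ratio of 1.10 (1.01 to 1.21; female 1.09, male 1.16). Over all NK and ILC1 cells it stood at 60.8 and 62.5 CPM. A UMI was seen in 24.2% and 25.0% of T cells, in 6.63% and 7.16% after thinning, against 0.102% and 0.295% of thinned hepatocyte or tumour cells.

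Within the T cells the Gzmk+ CD8 gate was the highest, 78.2 and 92.9 CPM (1.19), and the naive-like gate went from 62.0 to 49.7 CPM. Foxp3- CD4 T cells went from 49.3 to 67.9 CPM (1.38, 1.03 to 1.85), although within a sex the ratios were 1.08 and 0.676. Myeloid and B gates were lower throughout: 9.30 and 10.6 CPM in B cells, 7.45 and 6.99 CPM in pDC, 6.39 and 8.22 CPM in cDC1, and 7.75 and 7.99 CPM in macrophages. Classical monocytes went from 13.9 to 7.44 CPM (0.536, 0.331 to 0.849), with 1.27 in female and 0.529 in male cells.

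Csf2 RNA was rare, held by 101 of all kept DMSO cells and 160 STK cells, and a few cells carried most of it. In ILC1-like cells it stood at 50.2 CPM in DMSO (51 UMIs in 20 cells) and 160 CPM in STK (261 UMIs in 38 cells), a ratio of 3.20 (2.36 to 4.40). Male cells went from 75.3 to 353 CPM (4.69), and female DMSO cells held 1 UMI. The share of ILC1-like cells with a UMI was 12.2% and 14.3%, and 3.68% and 7.92% after thinning. The positive STK cells held more UMIs on average, but unevenly. The highest STK cells held 36 and 33 of the 261 UMIs, and 8 of the 38 positive cells held 10 or more. In thinned STK ILC1-like cells Csf2 was found in 10.1% of those with Xcl1 (20 of 198) and 1.49% of those without (1 of 67), and in DMSO in 4.13% (5 of 121) and 2.38% (1 of 42).

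In other T cells Csf2 went from 9.27 CPM (30 UMIs in 16 cells) to 37.7 CPM (181 UMIs in 36 cells), a ratio of 4.07 (2.75 to 6.20), with 3.21 in male cells. No Csf2 UMI was read in the female DMSO cells of this gate, so the female level was at least 3.50-fold higher in STK (against a floor of 3 UMIs per library). The highest STK cells held 33 and 24 of the 181 UMIs, and 6 of the 36 positive cells held 10 or more. With every marker minimum raised by 1 UMI the ratio in other T cells was 1.28. Conventional NK cells stood at 23.4 and 19.9 CPM (0.853, 0.607 to 1.20). Lower STK values in 3 other gates rested on single cells: 1 cell held 89 of the 94 DMSO UMIs in other NK cells (284 and 81.1 CPM), 64 of 81 in Foxp3- CD4 T cells (44.8 and 17.5 CPM) and 21 of 23 in Havcr2+ CD8 T cells (20.6 and 1.56 CPM). Without the top cell of each library the ratio was 3.08 in other NK cells and 1.30 in Foxp3- CD4 T cells, in place of 0.286 and 0.390. Gamma-delta or IL-17 T cells were also lower in STK, 39.4 and 9.02 CPM, on 16 and 8 UMIs. No Csf2 UMI was read in any of the 4 dendritic gates.

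Counted over the whole sort, ligand UMIs came mostly from NK, ILC1 and T cells in each library. NK and ILC1 cells held 55.9% of Xcl1 UMIs in DMSO and 49.1% in STK, and T cells 35.2% and 39.5%. For Flt3l it was T cells with 54.1% and 58.0%, and NK and ILC1 cells with 17.9% and 19.4%. For Csf2, NK and ILC1 cells held 51.1% and 53.1% and T cells 37.8% and 34.7%, but shares of the gates within these groups differed. ILC1-like cells, 1.47% and 2.45% of kept cells, held 12.1% of Csf2 UMIs in DMSO and 36.5% in STK. Other NK cells held 22.3% and 6.15%. These DMSO shares depend on single cells, since 1 other NK cell held 89 and 1 Foxp3- CD4 T cell held 64 of all 421 DMSO Csf2 UMIs. T cells made up 24.2% and 31.6% of kept cells, a ratio of 1.31 (1.24 to 1.37; 1.44 in each sex), and NK and ILC1 cells 7.43% and 10.3% (1.39, 1.27 to 1.52; female 1.48, male 1.07).

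The level over all kept cells can move through the mix of cells or through the level within each gate. The mix was taken as each gate's share of all UMIs, not of cells. Hepatocyte or tumour cells held 26026089 of 78065924 DMSO UMIs and 17733657 of 79681844 STK UMIs. Their part in the mix was not tested. Xcl1 stood at 141 CPM over all DMSO cells and 233 CPM over all STK cells. Giving the STK mix of 25 gates the DMSO levels gave 199 CPM, and giving the DMSO mix the STK levels gave 171 CPM. For Flt3l the observed values were 18.9 and 24.0 CPM, with 23.8 CPM from the STK mix at DMSO levels and 18.8 CPM from the STK levels in the DMSO mix. Xcr1 (4.97 and 7.58 CPM observed, 7.19 and 5.14 computed) and Flt3 (14.9 and 18.9 CPM observed, 18.8 and 14.8 computed) were like Flt3l, in that the mix alone came close to the STK value. Csf2rb was the other way round: 48.7 and 68.8 CPM were observed, the mix alone gave 52.8 CPM and the levels alone gave 63.4 CPM. For Csf2, 5.39 and 8.97 CPM were observed, the mix alone gave 7.30 CPM and the levels alone gave 6.39 CPM.

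**Figure D3:**
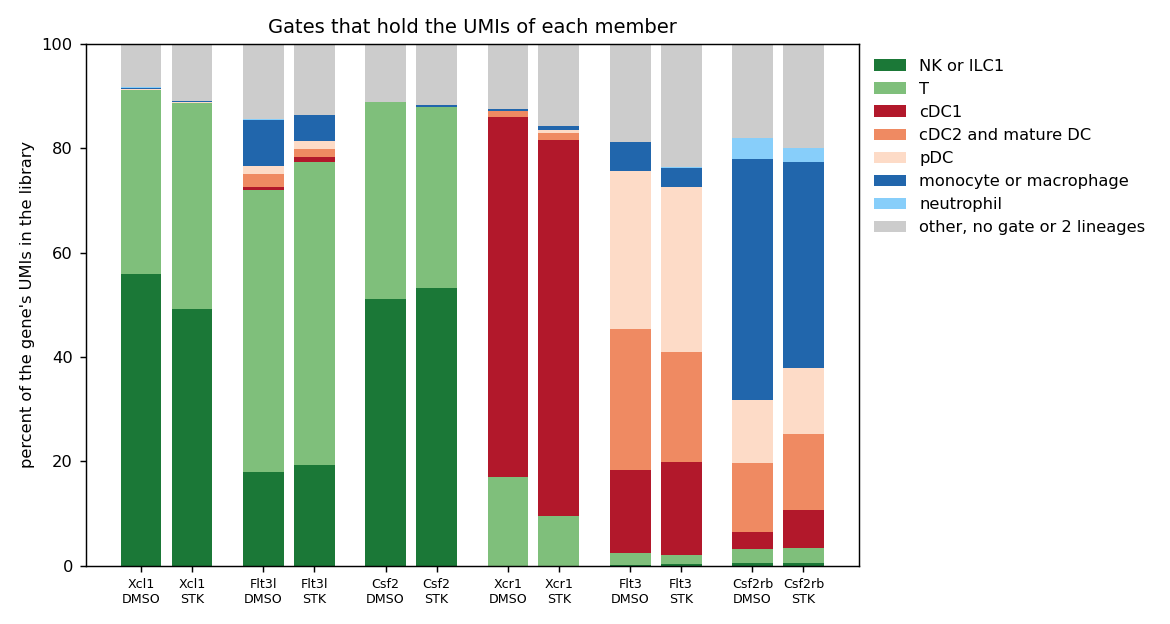
Share of each gene's UMIs, in percent, held by groups of gates in the DMSO and STK libraries, stacked to the whole. Xcl1, Flt3l and Csf2 UMIs sit mostly in NK, ILC1 and T cells, Xcr1 UMIs mostly in cDC1 (69.1% and 72.2%) and Flt3 UMIs mostly in dendritic cells (73.2% and 70.6%).

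Xcr1 was held by the cDC1 gate at a like level in each library. It stood there at 171 CPM in DMSO (268 UMIs, in 88 of 137 cells) and 179 CPM in STK (436 UMIs, in 114 of 188 cells), a ratio of 1.05 (0.896 to 1.22). Within a sex the ratios were 0.850 in female and 0.890 in male cells, with 10 female DMSO cells. The thinned shares were 13.9% (8.56 to 20.8) and 9.57% (5.77 to 14.7), against 0 of 979 and 0 of 679 hepatocyte or tumour cells, and no direction is read from them beside the like CPM. The median cDC1 cell held 10892 and 12090.5 UMIs. The cDC1 gate itself went from 1.23% to 1.73% of kept cells (1.41, 1.13 to 1.77), with 1.89 among female and 2.24 among male cells.

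Outside cDC1, mature DC, which carry migration genes, stood at 4.11 and 5.26 CPM. Foxp3- CD4 T cells held Xcr1 at 23.8 CPM in DMSO (43 UMIs in 21 cells) and 12.9 CPM in STK (20 UMIs in 14 cells), a ratio of 0.544 (0.303 to 0.944). The T gate itself asks for CD3 UMIs and sends cells that also reach the cDC1 minimum to the group with markers of 2 lineages. In that group 21 and 37 cells held Xcr1, 14 and 29 of them with the cDC1 marker Clec9a. The doublet caller marked 3 and 1 of the Xcr1-positive Foxp3- CD4 T cells. Their median depth was 7833 and 5443.5 UMIs, against 2862 and 2919 in the rest of the gate. They also held more of the enkephalin gene Penk, 724 against 158 CPM in DMSO and 1099 against 291 CPM in STK, a gene chosen after its values were seen.

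Flt3 was shared by all 4 dendritic gates, and none of its ratios had an interval that left out 1. Mature DC stood at 160 and 133 CPM (0.831, 0.660 to 1.05), cDC1 at 118 and 110 CPM (0.932, 0.770 to 1.13), pDC at 105 and 111 CPM (1.06, 0.919 to 1.22) and cDC2 at 81.4 and 69.3 CPM (0.851). In DMSO each of these overlapped its neighbour in the order, and in STK only cDC2 stood below the others. Over all dendritic cells the level was 109 and 104 CPM (0.952, 0.869 to 1.04; female 1.02, male 0.877). A UMI was found in 10.6% and 10.4% of thinned dendritic cells and in none of the thinned hepatocyte or tumour cells. Classical monocytes held 12.1 and 9.56 CPM and macrophages 1.62 and 1.86 CPM. Dendritic cells of all 4 gates made up 10.6% and 11.8% of kept cells (1.12, 1.03 to 1.21; female 1.36, male 1.27).

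**Figure D4:**
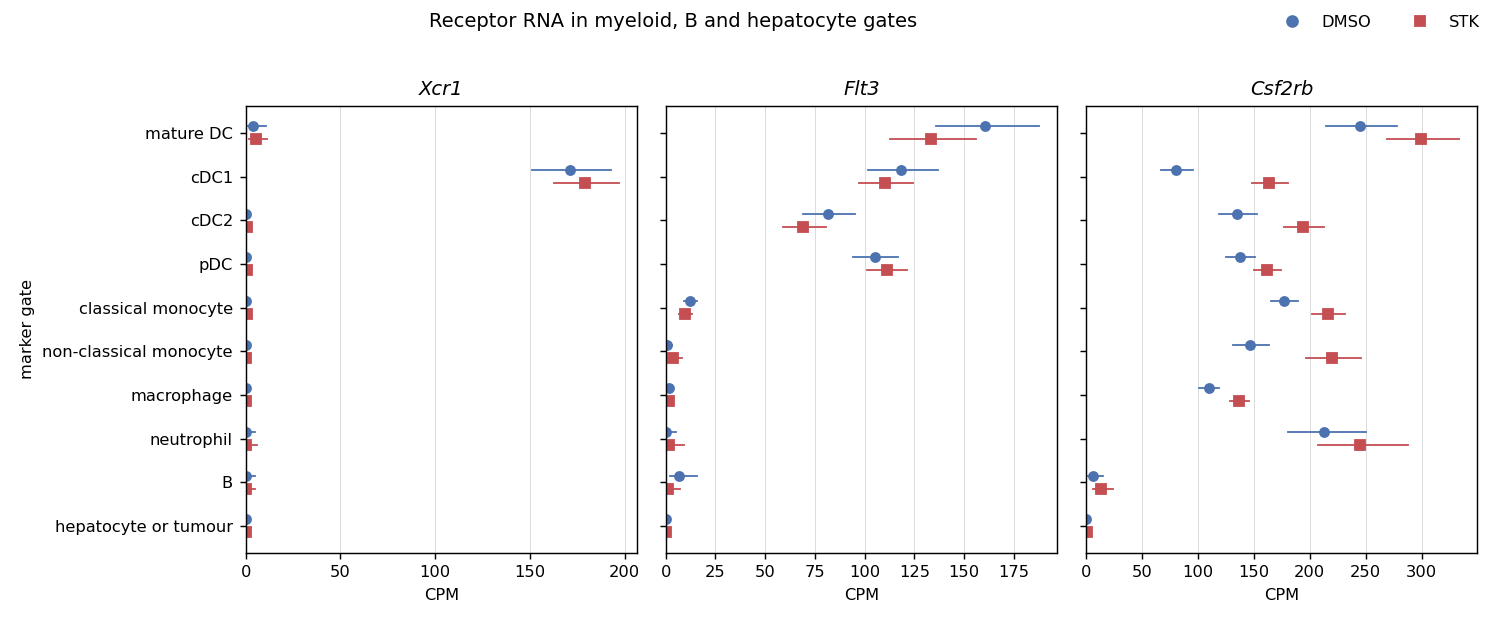
Level of Xcr1, Flt3 and Csf2rb in 10 gates of the DMSO and STK libraries, in CPM on linear axes from 0, with exact Poisson 95% intervals. Xcr1 is high in cDC1 alone among the gates drawn, Flt3 is high in the 4 dendritic gates, and Csf2rb is read in all myeloid gates with the cDC1 points at 80.5 and 164 CPM.

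Csf2rb was the member that differed most between the libraries in cDC1. It stood at 80.5 CPM in DMSO (126 UMIs in 67 of 137 cells) and 164 CPM in STK (399 UMIs in 142 of 188 cells), a ratio of 2.04 (1.66 to 2.51). Female cells went from 53.3 to 145 CPM (2.71, with 7 DMSO UMIs) and male cells from 77.4 to 199 CPM (2.57, 1.96 to 3.39). The share of cDC1 cells with a UMI went from 48.9% to 75.5%, and from 7.30% (3.56 to 13) to 15.4% (10.6 to 21.4) after thinning. Cells with at least 2 UMIs numbered 27 and 92, with highest values of 8 and 11, so the difference was spread over many cells. Hepatocyte or tumour cells held 0.653 and 1.24 CPM.

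Markers of other myeloid cells also differed in this gate. In cDC1 the 3 macrophage markers summed to 436 and 712 CPM (21.2% and 19.1% of cells) and the 3 cDC2 markers to 45.4 and 189 CPM (8.76% and 25.0% of cells), with none of these 6 markers at 0. The 6 mature DC markers summed to 49.2 and 66.2 CPM, with Cacnb3 at 0 in DMSO, and the 7 cDC1 markers to 2074 and 1779 CPM. Among cells with no UMI of the other myeloid markers (56 and 65 cells, the monocyte marker Ccr2 not counted, a subset defined after the data were seen), Csf2rb was read at 54.6 CPM in DMSO and 162 CPM in STK (2.96, 2.02 to 4.46).

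The common beta chain gene was also higher in STK in the other myeloid gates, by smaller ratios. It went from 135 to 194 CPM in cDC2 (1.43, 1.23 to 1.68; female 1.61, male 1.43), from 147 to 220 CPM in non-classical monocytes (1.5, 1.28 to 1.75) and from 244 to 300 CPM in mature DC (1.23, 1.04 to 1.45). Macrophages went from 110 to 137 CPM (1.25), classical monocytes from 177 to 216 CPM (1.22) and pDC from 138 to 162 CPM (1.18, 1.05 to 1.33). Neutrophils stood at 213 and 245 CPM (1.15, 0.910 to 1.45). In DMSO the cDC1 gate was the lowest of these 8 and did not overlap the next, macrophages, whereas in STK it overlapped cDC2 and pDC. Whether the cDC1 ratio differs from the others beyond animals could not be tested.

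The partner genes were read in the same gates. Csf2ra, the GM-CSF alpha chain, stood at 167 and 180 CPM in cDC1 (1.08, 0.924 to 1.26), 262 and 247 CPM in cDC2 (0.942) and 356 and 322 CPM in classical monocytes (0.906, 0.840 to 0.977). Csf2rb2 stood at 24.3 and 34.1 CPM in cDC1 (1.40, 0.946 to 2.12), at 324 and 324 CPM in pDC (0.999, 0.922 to 1.08) and at 76.2 and 58.8 CPM in cDC2 (0.772, 0.608 to 0.979). It also stood at 37.7 and 52.4 CPM in non-classical monocytes (1.39, 1.01 to 1.91) and at 52.3 and 60.4 CPM in macrophages (1.16). Its cDC1 interval holds the Csf2rb ratio, so the 2 genes are not shown to differ there. In cDC2 the near copies Csf2rb and Csf2rb2 thus lay on opposite sides of 1 in the same cells.

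**Figure D5:**
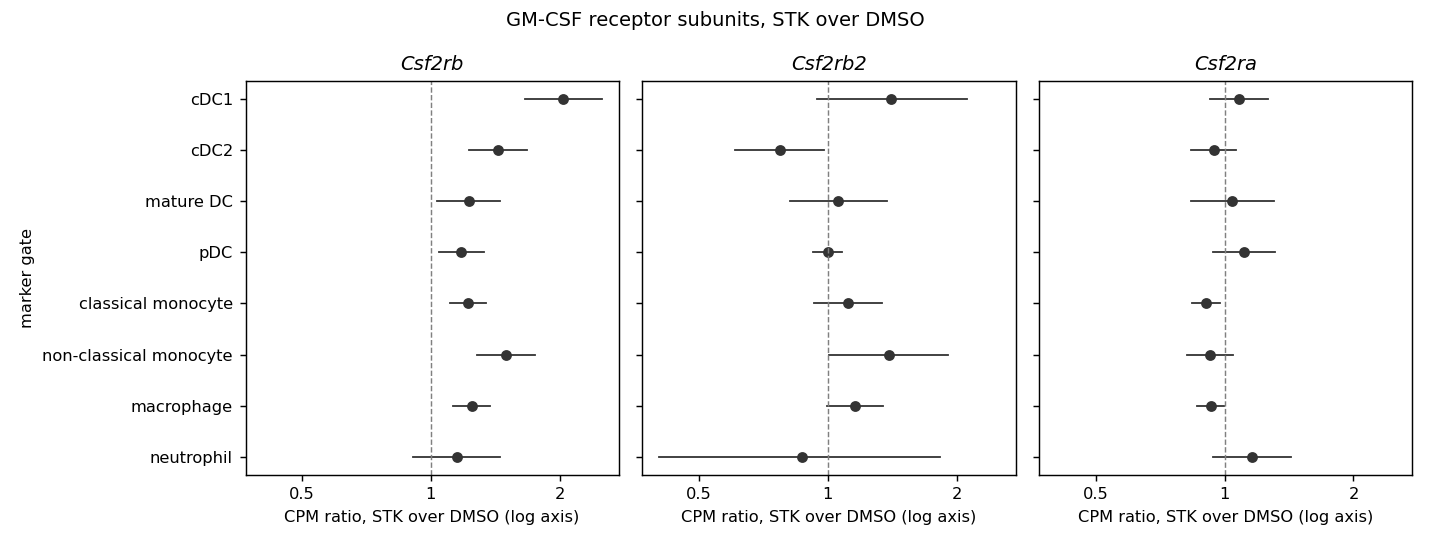
Ratio of CPM, STK over DMSO, of Csf2rb, Csf2rb2 and Csf2ra in 8 myeloid gates, on a logarithmic axis with exact 95% intervals and a line at 1. All 8 Csf2rb points lie above 1, with 2.04 in cDC1, whereas the Csf2ra points lie on both sides of 1.

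Csf2rb was also read beside the other receptors within single cDC1 cells. After thinning to 4000 UMIs, a depth chosen after seeing the data, Csf2rb was read in 32 of 131 DMSO cells and 80 of 180 STK cells. It was found in 20.4% of Xcr1-positive and 27.3% of Xcr1-negative DMSO cells, and in 44.3% and 44.5% of the STK cells. The higher STK share was therefore read alike in cells with and without Xcr1. By Flt3 the shares were 28.3% and 21.8% in DMSO, and 34.8% and 50.5% in STK.

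Counted over gates with at least 10 UMIs of the gene in both libraries together, Csf2rb was at least 1.5 times higher in 6 of 18 and lower in 1, Xcl1 higher in 4 of 15 and lower in 2, and Csf2 higher in 3 of 8 and lower in 4. Flt3l was higher in 0 of 19 and lower in 3, Flt3 higher in 0 of 9 and lower in 1, and Xcr1 higher in 1 of 5 and lower in 1. Over all pairs of gene and gate the shares were 10.9% higher and 12.4% lower. Csf2rb, Csf2, Xcl1 and Xcr1 thus had a larger share of higher gates than that background, and Flt3l and Flt3 had none. The share of lower gates was also above its background for Csf2, Xcr1, Flt3l and, by little, Xcl1. For Csf2 it was larger than the share of higher gates. The higher Xcr1 gate, Foxp3+ T cells, held only 6 and 9 UMIs. Among the higher Xcl1 gates, pDC held only 9 and 30 UMIs and classical monocytes 4 and 12. Of the 6 higher Csf2rb gates cDC1 was the only myeloid one, and the others, naive-like CD8, Foxp3+ and Foxp3- CD4 T cells, B cells and hepatocyte or tumour cells, held few UMIs. Non-classical monocytes, whose ratio rounds to 1.5, lay just under the limit. In the T gates naive-like CD8 T cells stood at 2.03 and 13.3 CPM and Gzmk+ CD8 T cells at 13.2 and 3.18 CPM. These values depend on cells with high doublet scores. When the 8% of cells with the highest scores were left out, the naive-like share of all STK Csf2rb UMIs went from 0.729% to 0.148%. The Gzmk+ share of all DMSO Csf2rb UMIs went from 0.631% to 0.245%.

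Genes that define the cDC1 programme held mixed directions, the 7 gate markers among them being no independent measure. In the cDC1 gate 2 of 18 were at least 1.5 times higher and 3 lower, against 12.4% higher and 10.5% lower among all genes, and the median log2 ratio was -0.26. Nfil3, a transcription factor gene of the early cDC1 lineage, went from 35.2 to 81.4 CPM. Id2, which restrains other dendritic fates, went from 887 to 408 CPM, and Irf8, which cDC1 need to form, from 1598 to 1027 CPM. In mature DC 4 of 16 were higher and 2 lower (11.8% and 15.1% of all genes), with the interleukin 12 gene Il12b at 884 and 1467 CPM and Ifi205 at 163 and 109 CPM.

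Among 12 genes of the STAT5 pathway and its feedback, 3 of 11 were higher and 1 lower in cDC1 (12.4% and 10.5% of all genes). Socs3, a feedback inhibitor of cytokine signalling, went from 16.0 to 37.4 CPM and the survival gene Bcl2a1b from 175 to 292 CPM. In cDC2 2 of 12 were higher and 2 lower (8.06% and 16.5% of all genes), with Bcl2a1b at 299 and 705 CPM and Stat5a at 43.6 and 27.1 CPM. In mature DC 1 was higher and 2 lower (11.8% and 15.1%), with Socs3 at 88.3 and 54.3 CPM. In pDC 2 were higher and 1 lower (9.84% and 7.7%), with Socs3 at 51.0 and 79.7 CPM. Classical monocytes had 3 higher and 2 lower (9.39% and 11.1%), with Myc at 19.4 and 40.1 CPM and Socs1 at 57.7 and 28.7 CPM, and macrophages 1 higher and 1 lower (7.12% and 12.5%), with Bcl2a1b at 480 and 720 CPM. The median log2 ratios of this list ran from -0.06 to 0.20.

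Of 13 relatives of the common beta chain and its growth factors, which include both partner genes, 0 of 6 passed the 1.5 times limit in cDC1, 0 of 5 in mature DC and 1 of 7 in cDC2, where it was lower, and in pDC 3 of 8 were higher. Among all genes 12.4% were higher and 10.5% lower in cDC1, 11.8% and 15.1% in mature DC, 8.06% and 16.5% in cDC2, and 9.84% and 7.7% in pDC. Of 9 other chemokine receptor genes of dendritic cells, 4 of 7 were higher in cDC1 and 0 lower, against the same 12.4% and 10.5% of all genes, with a median log2 ratio of 1.30 against 0.00 for all genes. Ccr7, which guides dendritic cells to lymph nodes, went from 12.1 to 53.0 CPM, whereas Ccr2 stood at 184 and 185 CPM. Ccr7 is a mature DC gate marker, and mature DC held 5714 and 7208 CPM of it. It was also higher in cDC2 (82.4 and 139 CPM, 1 of 8 genes higher against 8.06% of all genes) and pDC (12.8 and 24.5 CPM, 3 of 9 higher against 9.84%). In mature DC Cxcr4 went from 34.9 to 71.0 CPM (2 of 5 higher against 11.8%).

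Other genes had the pattern of each member over the 21 gates and both libraries, taken as 42 points of log2(CPM + 10) that share libraries and depth. Of 11508 genes ranked, those most like Xcl1 were Txk (r = 0.971), Klrc1 (0.967) and Crtam (0.966), and those most like Flt3l were Ms4a4b (0.967), Skap1 (0.964) and Thy1 (0.963). For Xcr1 they were Gpr141b (0.920), Dbn1 (0.874) and Tlr11 (0.865), for Flt3 Ccnd1 (0.963), Grasp (0.929) and Tnni2 (0.901), for Csf2rb Pirb (0.965), Csf2ra (0.953) and Skap2 (0.950), and for Csf2 Cited4 (0.830), Klrb1f (0.824) and Nrgn (0.823). Csf2 had the weakest likeness of the 6 to any gene.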

How the data were processed

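The values deposited by the authors are counts of UMIs for each gene in each barcode, not normalized, and were made with Cell Ranger 6.0.2, per the file headers. The build is GRCm38 (mm10), per the submitters' processing notes, and the annotation release is not given in the sources used here. Kept cells held 78065924 DMSO and 79681844 STK UMIs, with medians of 4471.5 and 4930.5 per cell, and 632 and 826 barcodes were left out.

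Cells were gated by UMIs of marker genes. The minimum UMIs per gate were set after the markers' distributions had been seen, and cells with markers of 2 lineages (405 and 626) or of none (2087 and 1354) were kept apart. Scrublet (scanpy 1.11.5) marked 1.95% and 0% of cells by its automatic threshold, which had not worked, so the alternative without doublets left out the 8% of cells with the highest scores (908 and 880). UMIs were summed per library and gate and divided by the gate total. Where a library had no UMI, ratios took 3 UMIs as its floor. No test was run, since each group is 1 library.

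The 6 members and their 2 partners were described in every gate. From each of 5 lists the text names up to 4 genes with the largest ratio among those with at least 50 UMIs in the higher library, and a few others given as levels; 1 gene that this rule names is not reported here. For each member it names the 3 genes with the highest correlation, among genes with at least 200 UMIs. The members, lists and gates were chosen with earlier results of these data known. Promoters came from RefSeq, where 5 of the 6 members matched. The alternatives were other scalings, stricter gates, doublets, a mitochondrial limit of 5%, the top cell, each sex, cell means and other depths. Calculations used numpy 2.4.6, pandas 2.3.3 and scipy 1.17.1 and were tested on simulated data.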

Additional observations from a re-analysis of the deposited data

Results flagged for a closer look

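Among gates with at least 50 Xcl1 UMIs in the library where the gene was higher, the highest and lowest ratios of STK to DMSO past 1.5 times, with intervals that left out 1, lay on opposite sides of 1: 3.45 in Foxp3- CD4 T cells and 0.587 in Foxp3+ T cells. Each rests on few cells, since 1 STK cell held 166 of 587 UMIs in the Foxp3- CD4 gate and 2 DMSO cells held 71 and 47 of 144 UMIs in the Foxp3+ gate. For Csf2, under the same limits, they were 4.07 in other T cells and 0.286 in other NK cells, where 1 DMSO cell held 89 of 94 UMIs.

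Where each sex held at least 10 Xcl1 UMIs in both libraries, female and male ratios lay on opposite sides of 1, with intervals that left it out, in 2 gates. In naive-like CD8 T cells it was 4.93 among female cells and 0.463 among male cells, and in gamma-delta or IL-17 T cells 6.41 and 0.765. None of these differences was tested, because each group is 1 library.

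Cells that entered no gate, which the comparisons leave out, also held ligand RNA. Xcl1 stood at 18.7 CPM in DMSO and 116 CPM in STK, a ratio of 6.17 (5.13 to 7.47), with 2 UMIs in female DMSO cells and 2.07 in male cells. Csf2 stood at 1.35 and 4.16 CPM, a ratio of 3.08, on 10 and 22 UMIs.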

How the results depend on the processing

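No paired analysis was possible because each group is 1 library and the labels give no replicate numbers. A gate total without mitochondrial, ribosomal, haemoglobin and hepatocyte genes and a mitochondrial limit of 5% left all 95 ratios within counting error of the reported ones. Median-ratio scaling moved 1 of 95, Xcl1 in all NK and ILC1 cells, to 1.12. The sex of the cells moved the most, 34 of 69 ratios in female and 40 of 78 in male cells, with 4 and 1 turned round. Only a ratio of at least 1.5 times in either direction that crossed 1 was counted as turned. Smaller ratios that crossed 1 are not in that count. Among them is Xcl1 in male gamma-delta or IL-17, naive-like CD8 and Gzmk+ CD8 T cells. Leaving out doublets moved 14 and turned 1 of 89, a mean over cells moved 10 and turned 1 of 95, leaving out the top cell moved 9 and turned 3 of 94, and stricter gates moved 8 and turned 2 of 94.

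Xcl1 in all T cells was 1.40 without doublets, 1.58 in female and 0.897 in male cells and 1.57 as a mean over cells. In all NK and ILC1 cells it was 1.05 without doublets, 1.83 in female and 1.17 in male cells. It turned in Havcr2+ CD8 T cells with stricter gates (0.987), in female Foxp3+ T cells (1.79), in macrophages without the top cell (1.38) and in female dendritic cells (0.636). Xcr1 in cDC1 was 0.850 in female and 0.890 in male cells. Flt3l turned in female classical monocytes (1.27).

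Csf2 turned in Foxp3- CD4 T cells with stricter gates (1.36), without doublets (1.64) and without the top cell (1.30), and in other NK cells without the top cell (3.08) and as a mean over cells (1.04). In all NK and ILC1 cells it was 1.99 without the top cell, 2.20 in female and 1.75 in male cells and 1.65 as a mean over cells. Csf2rb turned in female Foxp3- CD4 T cells (0.395). In cDC1 it was 2.71 in female cells, 2.57 in male cells and 2.96 without cells holding other myeloid markers, an alternative added after the data were seen, and in female dendritic cells it was 1.56.

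Of the cell shares, NK and ILC1 cells gave 1.07 in male cells, T cells 1.44 in each sex, cDC1 1.89 in female and 2.24 in male cells, and all dendritic cells 1.36 and 1.27. With at least 50 UMIs, 2 chemokine receptor genes and 1 cDC1 programme gene were higher in cDC1, and 0 effector genes in conventional NK cells. At a fold of 2, the STAT5 list had 1 higher and 0 lower in cDC1, the cDC1 programme 1 and 1, and conventional NK cells had 1 effector gene lower. Apart from what construction removes (cells, UMIs or genes), the cause was not tested. Depth limits Csf2 and Xcr1 most, with 421 and 715 Csf2 UMIs in all.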

Other observations

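Conventional NK cells with and without an Xcl1 UMI were compared for other chemokines after thinning to 1000 UMIs. Ccl4 was read in 57.7% and 48.8% of them in DMSO and in 44.5% and 39.7% in STK. Ccl3 was read in 35.5% and 32.2% in DMSO and in 15.5% and 17.1% in STK, and Ccl5 in 86.7% and 84.4% in DMSO and in 92.0% and 93.3% in STK. In gamma-delta or IL-17 T cells the gap in Ccl5 was wider, with 84.6% of Xcl1-positive and 46.4% of Xcl1-negative cells in DMSO and 78.9% and 55.4% in STK.

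In mature DC thinned to 4000 UMIs, Csf2rb2 was read in 40.8% of cells with and 14.0% of cells without a Csf2rb UMI in DMSO, and in 42.9% and 19.1% in STK. Cells of 1 library are not replicates, so these shares are given as a description.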
